A study of Canis lupus familiaris with 21 samples.

Results

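Voltage-gated sodium channels carry the upstroke of the action potential, and voltage-gated calcium channels turn that electrical signal into calcium entry, which drives transmitter release, dendritic signalling and gene regulation. Both are built around a large pore-forming subunit (alpha in sodium channels, alpha1 in calcium channels) that sets the current. Smaller partners steer its trafficking and gating: the beta subunits of sodium channels, and the alpha2delta, beta and gamma subunits of calcium channels. Several gamma genes encode transmembrane AMPA receptor regulatory proteins (TARPs), which serve glutamate receptors more than calcium channels.

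The genes described are every gene of the tables whose symbol starts with SCN, carries a number and ends in A or B, or starts with CACNA, CACNB or CACNG. That gave 39 of 34981 genes: 9 sodium channel alpha, 4 sodium channel beta, 10 calcium channel alpha1, 4 alpha2delta, 4 calcium channel beta and 8 gamma or TARP genes. The choice went by name and not by a cut on measured values, but earlier results of these data were known when it was made. SCN4A was not analysed here.

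RNA was sequenced from the prefrontal cortex and from plasma extracellular vesicles (EVs, membrane particles that cells release) of companion dogs in 3 groups. These were dogs with canine cognitive dysfunction (abbreviated CCD, an age-linked loss of learning, memory and house habits), old dogs and young dogs. The labels give no age in years, breed, sex, treatment or batch, and do not say that each library is a separate dog, so p-values measure the spread between these libraries. Cortex gave 3 polyadenylated RNA libraries a group, labelled cortex_163, cortex_354 and cortex_358 in CCD, cortex_250, cortex_253 and cortex_264 in old and cortex_270, cortex_353 and cortex_377 in young, and values for single libraries are given in that order. EVs gave 4 total RNA libraries a group, with the same numbers plus EV_523 in CCD, EV_519 in old and EV_502 in young.

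Some features of the cortex libraries moved with the groups, while others overlapped between them. Read totals were 14.9 to 18.9 M in CCD, 24.2 to 27.5 M in old and 22.3 to 31.4 M in young. The summed normalised count of 9 excitatory neuron markers was 40927 to 56555 in CCD, 72035 to 95996 in old and 47970 to 113411 in young, and that of 11 general neuron markers was 217339 to 251278 in CCD, 233613 to 272675 in old and 175724 to 276750 in young. The 5 measured oligodendrocyte markers summed to 246709 to 632354 in CCD, 198507 to 273232 in old and 35626 to 217636 in young. The 6 astrocyte markers summed to 88820 to 89168 in CCD, 65548 to 83189 in old and 105001 to 111285 in young, with no overlap between any of the groups (exact two-sided permutation p = 0.1 in each comparison, the smallest that 3 against 3 allows). Transposable element families took 5.53% to 7.91% of reads in CCD, 4.44% to 5.18% in old and 4.19% to 5.64% in young, so CCD and old did not overlap. The part of these in the member values was not tested. Young cortex_377 stood apart, with the most reads and the lowest oligodendrocyte sum (35626, where the next lowest library had 171650). Meningeal fibroblast markers summed to 17009 in CCD cortex_358, 36116 in young cortex_353 and 23254 in young cortex_377, and to 285 to 1494 in the other 6 libraries. The neuronal and glial markers were present in every cortex library. Of the sensory neuron markers, CALCA, ISL1 and POU4F1 were at 0 in at least 1 library, and so were the skeletal muscle markers MYH1, MYH2, CKM and TNNT3.

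In the first comparison, CCD against old cortex, several sodium channel genes and several calcium channel genes had lower counts in CCD. Every CCD library lay below every old library for the sodium channel alpha genes SCN2A, SCN3A and SCN8A, the beta genes SCN2B and SCN3B, the calcium channel genes CACNA1E and CACNA1I and the TARP gene CACNG8. The sizes ran from 1.83-fold lower for CACNA1E to 3.81-fold lower for SCN8A. SCN1A, SCN4B and CACNA1A had overlapping groups, with log2 fold changes of -0.32, 0.24 and 0.06. CACNA1D was higher in every CCD library than in any old one. In bulk tissue, fewer cells of a type and less RNA per cell cannot be told apart.

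Of the 39 genes, 37 averaged 10 or more normalised counts in cortex and were tested, while SCN10A and CACNG1, near 0 in cortex, were not. In the fit of the 3 groups limma, adjusted over all 19010 tested genes, called 0 members at the 0.05 threshold, and 0% of all genes. EdgeR also called 0 members and 0 genes. DESeq2 called 0 members and 162 genes (0.268% of all genes lower and 0.584% higher). At an unadjusted p under 0.05, 13 members were lower and 1 was higher in CCD, beside 10.8% of all tested genes lower and 3.99% higher. With edgeR that split was 10 lower and 1 higher (6.07% and 6.93% of all genes), and with DESeq2 also 10 and 1 (7.04% and 8.63%). Groups did not overlap in 19 members that were lower and 2 that were higher, where 22.6% of all genes were lower and 11.9% higher in this way. The log2 fold change was negative in 26 of 37 members, with a median of -0.46, and in 57.1% of all tested genes, with a median of -0.10.

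Fitting only the 6 libraries of CCD and old, limma called 11 members lower and 0 higher at an adjusted p under 0.05, where it called 6.81% of all genes lower and 2.54% higher. They were the sodium channel genes SCN2A, SCN3A, SCN8A, SCN2B and SCN3B, and the calcium channel genes CACNA1E, CACNA1I, CACNA2D1, CACNA2D3, CACNB2 and CACNG8. Leaving young cortex_377 out of the fit of 3 groups called 7 members, all lower (2.92% of all genes were called lower). These calls depend on how the young libraries enter the estimate of spread, since the fold changes of CCD against old are the same in each of these fits.

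The read total and many members moved together. Over the 9 cortex libraries the median Spearman's rho with the read total was 0.67 for members and 0.12 for all tested genes. It was above 0.8 in 27.0% of members and 9.38% of all tested genes. With the log2 read total as a covariate, chosen after seeing the data, 0 members were lower and 2 higher in CCD than in old by the unadjusted p (2.25% and 2.26% of all genes), and the median member was at 0.24. The 2 higher members were CACNA1H at 1.87 ± 0.46 and CACNG5 at 1.10 ± 0.40 (SE). In that fit SCN8A was at 0.65 ± 0.74, SCN2A at 0.35 ± 0.59, SCN2B at 0.25 ± 0.39 and CACNG8 at -0.04 ± 0.47 (SE). The slope of that covariate comes from the spread of read totals within groups, which was widest in young (22.3 to 31.4 M). How far these values rest on young cortex_377 was not tested. Since CCD and old libraries do not overlap in reads, depth and group cannot be told apart. With oligodendrocyte markers as a covariate, also chosen after seeing the data, 11 members were lower and 2 higher (7.99% and 3.10% of all genes), with a median of -0.23. After centring each library on its general neuron markers 5 were lower and 2 higher (2.30% and 9.13% of all genes), with a median of -0.22. The part of the neuron and oligodendrocyte content in the differences was not tested beyond these fits.

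Among sodium channel alpha genes, SCN8A encodes Nav1.6, the main channel of the mature axon initial segment and the nodes of Ranvier. It had normalised counts of 349, 372 and 462 in the CCD libraries, 1305, 1224 and 2088 in the old and 565, 496 and 4379 in the young. All CCD libraries lay below all others, and young cortex_377 held more than any other library. The log2 fold change of CCD over old was -1.93 ± 0.66 (SE; limma adjusted p = 0.290, and 0.00967 to 0.914 over 21 alternatives).

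SCN2A encodes Nav1.2, which serves excitatory neurons early in life and the proximal initial segment later. Its counts were 2420, 2194 and 2220 in CCD, 3258, 5195 and 4383 in old and 2412, 1730 and 6758 in young. The CCD libraries were close together and below every old library, but within the range of the young. The change against old was -0.88 ± 0.41 (SE; limma adjusted p = 0.342).

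SCN3A encodes Nav1.3, a channel known chiefly from the developing brain. It had 294, 170 and 196 normalised counts in CCD, 418, 664 and 517 in old and 514, 257 and 1048 in young. CCD libraries lay below old libraries without overlap, at -1.29 ± 0.44 (SE; limma adjusted p = 0.290, and 0.0247 to 0.990 over 21 alternatives). SCN1A, which encodes Nav1.1, the main channel of fast-spiking interneurons, overlapped between groups, with 5433, 3438 and 4311 in CCD, 5848, 4504 and 5990 in old and 4386, 4224 and 5968 in young (CCD over old -0.32 ± 0.23, SE).

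The other sodium channel alpha genes are known mainly outside the cortex. SCN9A, which encodes the Nav1.7 of pain-sensing neurons, had 127, 105 and 128 normalised counts in CCD, 185, 244 and 186 in old and 143, 156 and 212 in young, with CCD below both other groups (CCD over old -0.76 ± 0.28, SE). SCN7A, which encodes a sodium-sensing channel of glia, and SCN11A, a sensory neuron channel gene, ranged over 22.2 to 278 and 17.0 to 150 normalised counts, with overlapping groups.

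The beta subunits, single-pass membrane proteins that tune gating and act as adhesion molecules, differed from each other. SCN2B had 2785, 2532 and 3357 normalised counts in CCD, 6365, 5672 and 8580 in old and 3698, 3414 and 10503 in young. CCD lay below both other groups, and young cortex_270 and young cortex_353 were nearer to CCD than to old. The change against old was -1.24 ± 0.37 (SE; limma adjusted p = 0.290, and 0.0133 to 0.942 over 21 alternatives).

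SCN3B had 5020, 4778 and 4737 normalised counts in CCD, 8280, 13273 and 11728 in old and 6288, 4819 and 14257 in young. The CCD libraries were again below every old library and close to young cortex_353. The change against old was -1.17 ± 0.35 (SE; limma adjusted p = 0.290, and 0.0137 to 0.961 over 21 alternatives). SCN4B, whose protein gives the blocking particle of resurgent current, had a change of 0.24 ± 0.40 (SE). It lies beside SCN2B in the RefSeq annotation, yet its libraries ran in another order, with 8937, 8915 and 6988 in CCD, 13099, 3951 and 6478 in old and 10782, 5576 and 5548 in young.

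**Figure D1:**
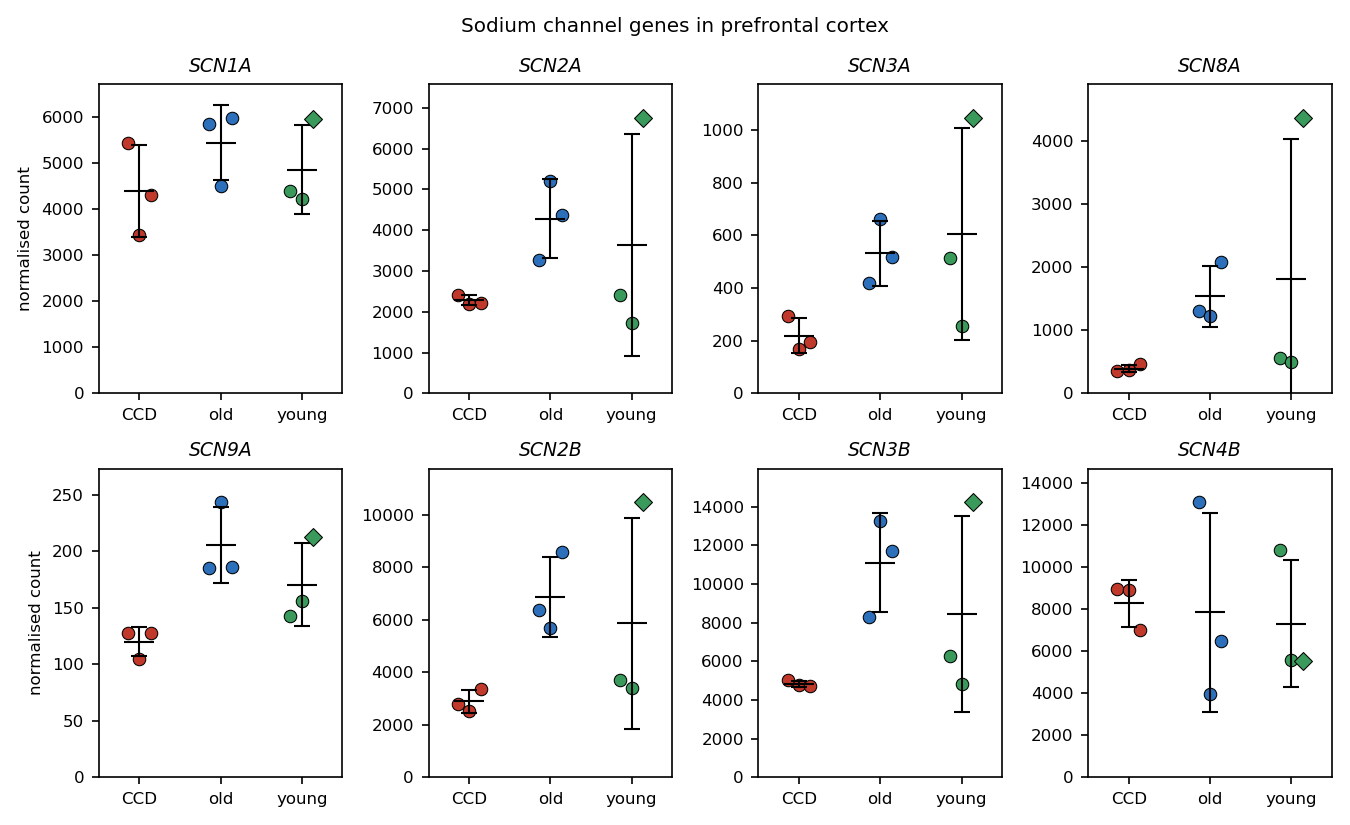
Normalised counts (linear axes from 0) of 5 sodium channel alpha and 3 beta genes in each cortex library by group. Points are libraries, the diamond is young cortex_377, and bars are the mean ± SD (n = 3). SCN8A lies at 349 to 462 in CCD and 1224 to 2088 in old, SCN1A and SCN4B overlap, and young cortex_377 is highest for SCN2A, SCN3A, SCN8A, SCN2B and SCN3B.

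Of the calcium channel alpha1 genes, those of the P/Q-type and N-type channels of nerve terminals differed from each other. CACNA1A, the P/Q-type gene, was nearly flat, with 3378, 3542 and 3363 normalised counts in CCD, 3290, 3209 and 3392 in old and 2957, 4040 and 3428 in young (CCD over old 0.06 ± 0.17, SE). CACNA1B, the N-type gene, had 1304, 1300 and 986 in CCD, 1518, 1718 and 1652 in old and 951, 1107 and 2368 in young. Its CCD libraries were below the old but not below the young (CCD over old -0.46 ± 0.30, SE; limma adjusted p = 0.471).

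The L-type channels couple membrane activity to transcription. CACNA1D, which encodes Cav1.3, had 1680, 1275 and 1151 normalised counts in CCD, 851, 1064 and 931 in old and 776, 868 and 956 in young, the largest values being the CCD ones. The change was 0.52 ± 0.20 over old (SE; limma adjusted p = 0.308, and 0.0587 to 0.896 over 21 alternatives). With the read total as a covariate it was 0.65. Its sign was the same under all 21 alternatives, but many of them, such as leaving out a young library, could not turn it.

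CACNA1C, which encodes Cav1.2, went the other way, with 213, 126 and 236 normalised counts in CCD, 242, 294 and 471 in old and 298, 217 and 1026 in young. CCD lay below old without overlap but overlapped young, at -0.80 ± 0.52 against old (SE; limma adjusted p = 0.464). The RefSeq annotation places other genes, DCP1B among them, over CACNA1C, and whether reads were counted by strand is not given in the sources used here, so its counts could hold reads of those genes. The same limit holds for other members with overlapping RefSeq genes, among them CACNA2D3 (LRTM1 and others), SCN2A, SCN3A, SCN8A, SCN3B, CACNA2D1 and CACNB2. CACNA1F, the retinal L-type gene, and CACNA1S, that of skeletal muscle, had 6.60 to 32.8 and 18.9 to 205 normalised counts over the cortex libraries, with overlapping groups.

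R-type and T-type channels shape dendritic calcium and burst firing. CACNA1E, the R-type gene, had 2021, 2499 and 1592 normalised counts in CCD, 2902, 4217 and 3998 in old and 2318, 1461 and 4557 in young. CCD was below old, with young cortex_353 lower than any CCD library (CCD over old -0.87 ± 0.36, SE; limma adjusted p = 0.313, and 0.0317 to 0.967 over 21 alternatives). CACNA1I, a T-type gene, had 140, 241 and 223 in CCD, 380, 445 and 694 in old and 310, 459 and 1614 in young. Its CCD libraries were below all others, at -1.32 ± 0.52 against old (SE; limma adjusted p = 0.308, and 0.0293 to 0.977 over 21 alternatives).

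The other T-type genes differed from CACNA1I. CACNA1G had 792, 981 and 696 normalised counts in CCD, 1056, 1101 and 1074 in old and 773, 1289 and 2345 in young, so CCD was below the tight old group but overlapped young (CCD over old -0.40 ± 0.33, SE). CACNA1H had 857, 583 and 1336 in CCD, 673, 793 and 625 in old and 627, 510 and 1519 in young, with overlapping groups (CCD over old 0.33 ± 0.40, SE). Across the 10 alpha1 genes the log2 fold change of CCD over old was negative in 5, with a median of -0.17, while 7 of the 8 tested sodium channel alpha genes were negative, with a median of -0.83. Of all tested genes 57.1% were negative.

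The alpha2delta subunits carry channels to the surface and are the targets of gabapentin-like drugs. CACNA2D1 had 2126, 1671 and 1725 normalised counts in CCD, 2437, 3725 and 3632 in old and 2479, 2371 and 6570 in young, and CCD was below both other groups (CCD over old -0.81 ± 0.36, SE; limma adjusted p = 0.330, and 0.0317 to 0.943 over 21 alternatives). CACNA2D3 had 1265, 1150 and 1106 in CCD, 2007, 1887 and 1565 in old and 1547, 1211 and 1608 in young. It was below old without overlap, at -0.63 ± 0.19 (SE; limma adjusted p = 0.290, and 0.0311 to 0.896 over 21 alternatives).

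CACNA2D2 had 590, 751 and 718 normalised counts in CCD, 948, 922 and 1097 in old and 759, 700 and 903 in young. CCD was below old without overlap and reached into the young range (CCD over old -0.53 ± 0.19, SE; limma adjusted p = 0.301, and 0.0507 to 0.903 over 21 alternatives). CACNA2D4, best known from the retina, stayed between 7.31 and 27.7 normalised counts, with overlapping groups.

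Among the cytoplasmic beta subunits, which hold the alpha1 subunit at the membrane, CACNB2 had 811, 719 and 1282 normalised counts in CCD, 1665, 1605 and 1954 in old and 1664, 1016 and 2472 in young. Every CCD library was below every old one (-0.93 ± 0.32, SE; limma adjusted p = 0.290, and 0.0292 to 0.977 over 21 alternatives). CACNB1 also did not overlap, with 2769, 1816 and 1939 in CCD, 2831, 2840 and 3139 in old and 1809, 2164 and 3467 in young (CCD over old -0.46 ± 0.26, SE).

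CACNB3 and CACNB4 were not lower in this way. CACNB3 had 5831, 3705 and 4856 normalised counts in CCD, 5044, 5132 and 5332 in old and 4174, 7365 and 7088 in young, with overlapping groups (CCD over old -0.13 ± 0.25, SE). CACNB4 had 7275, 6075 and 6782 in CCD, 5916, 6018 and 5862 in old and 6941, 5185 and 4074 in young. Its CCD libraries were just above the old (0.17 ± 0.21, SE; limma adjusted p = 0.692), and young cortex_377 had the lowest count.

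The TARPs also split. CACNG8, whose protein TARP gamma-8 regulates AMPA receptors of forebrain excitatory synapses, had 215, 133 and 166 normalised counts in CCD, 474, 382 and 686 in old and 314, 265 and 787 in young. All CCD libraries lay below all others. The change against old was -1.56 ± 0.41 (SE; limma adjusted p = 0.290, and 0.0173 to 0.990 over 21 alternatives), a 2.96-fold lower level, and this member had the smallest p of the 37 in that comparison.

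CACNG2, whose protein stargazin carries AMPA receptors to synapses, lay on the other side, with 1596, 1281 and 1180 normalised counts in CCD, 1332, 854 and 888 in old and 842, 1197 and 735 in young. Groups overlapped, and CCD over old was 0.42 ± 0.25 (SE; limma adjusted p = 0.430). CACNG3, also a forebrain TARP gene, had 3091, 1970 and 2845 in CCD, 3531, 3212 and 3669 in old and 2907, 2920 and 3884 in young, with CCD below old (-0.42 ± 0.21, SE; limma adjusted p = 0.366).

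CACNG7 and CACNG8 lie side by side in the RefSeq annotation and differed: CACNG7 had 2512, 3084 and 3847 normalised counts in CCD, 4320, 3198 and 4120 in old and 3688, 3626 and 3477 in young (CCD over old -0.31 ± 0.20, SE). CACNG4 and CACNG5, another neighbouring pair, had 0.35 ± 0.27 and -0.03 ± 0.32 against old. CACNG6, a relative of the skeletal muscle subunit gene CACNG1, had 5.04 to 28.3 normalised counts over all cortex libraries, a level at which counting error is large.

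**Figure D2:**
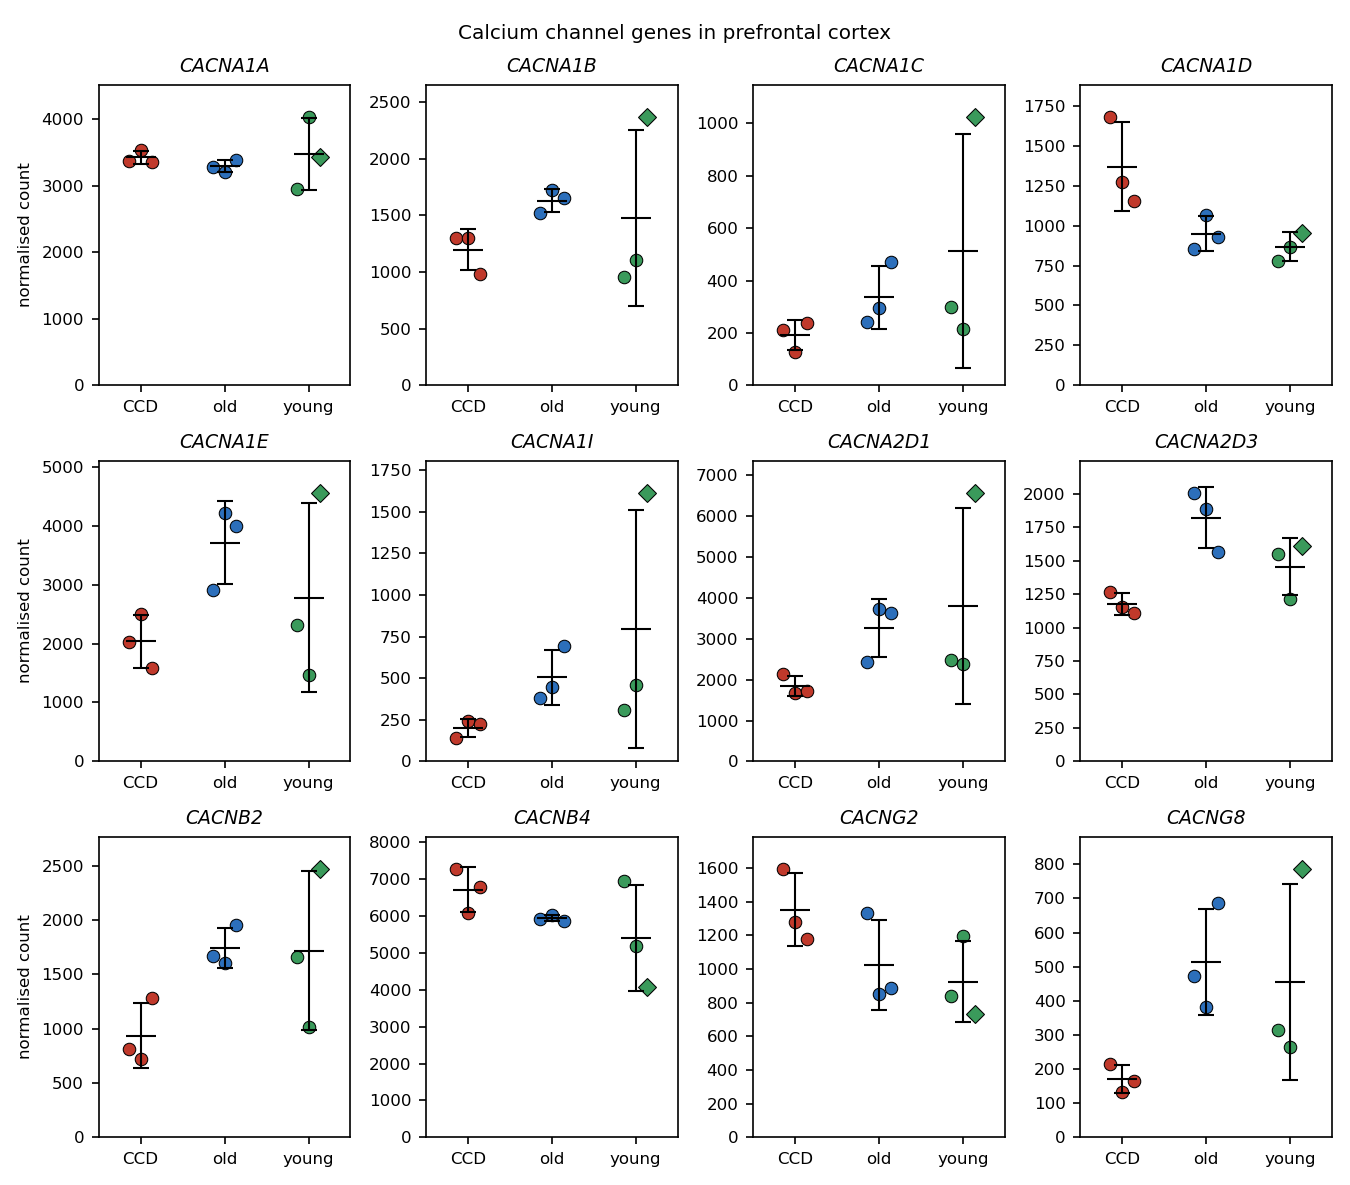
Normalised counts (linear axes from 0) of 12 calcium channel genes in each cortex library by group. Points are libraries, the diamond is young cortex_377, and bars are the mean ± SD (n = 3). CACNG8 and CACNA1I are lowest in CCD, CACNA1A lies between 2957 and 4040 in every library, and CACNA1D is highest in CCD, at 1151 to 1680.

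**Figure D3:**
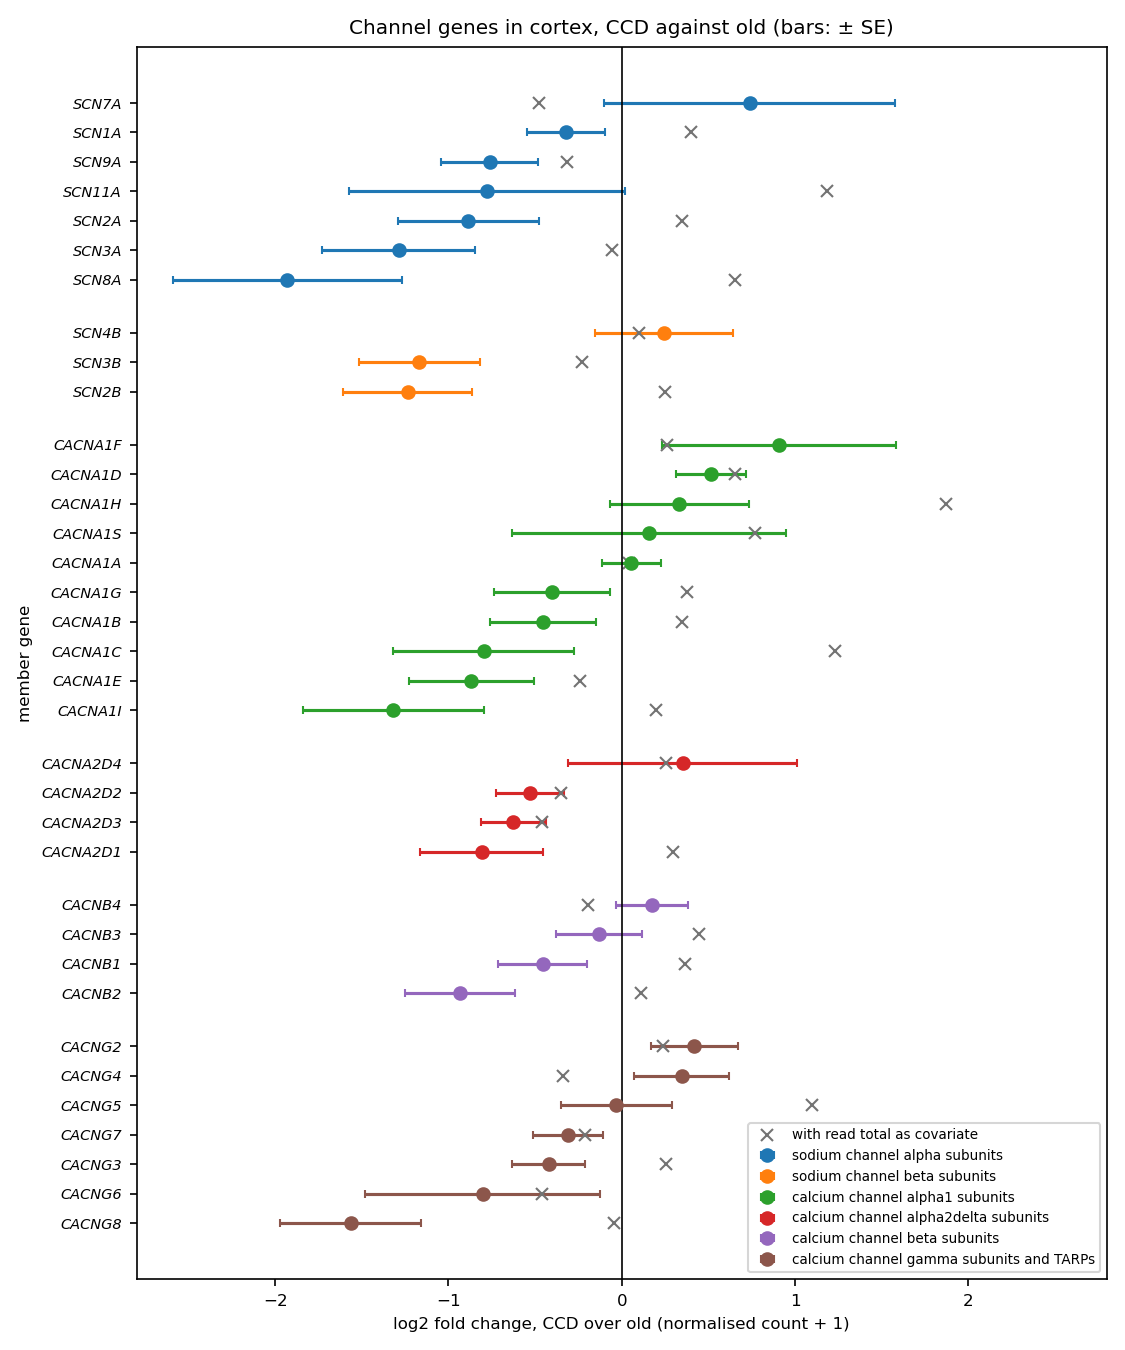
Log2 fold change of CCD over old for 35 of the 37 tested members by subunit class. Coloured points with bars are the limma fit ± SE, and grey crosses are the same with the log2 read total as a covariate. Over all 37, 26 lie below 0 in the fit without a covariate and 13 with it. Of all 19010 tested genes, 10862 lie below 0 without it and 10031 with it. SCN8A is at -1.93 in the first and 0.65 in the second.

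Ratios between members of 1 library do not depend on its scaling, and 6 were compared, of which 5 are described (18 tests, exact two-sided permutation tests, where 3 against 3 cannot go below p = 0.1). They can still follow the read total, which did not overlap between CCD and old. Young cortex_377, with the most reads, had the highest SCN8A to SCN2A and the lowest CACNA1D to CACNA1C ratio. The part of the read total in the ratios was not tested. The log2 ratio of SCN8A to SCN2A was -2.79, -2.56 and -2.26 in CCD, -1.32, -2.08 and -1.07 in old and -2.09, -1.80 and -0.63 in young. CCD lay below both, with differences of -1.046 against old and -1.03 against young on the log2 scale (exact p = 0.1, adjusted p = 0.225 for each), the second being -0.59 without young cortex_377.

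The ratio of CACNA1D to CACNA1C was 2.97, 3.32 and 2.28 in CCD, 1.81, 1.85 and 0.98 in old and 1.38, 1.997 and -0.10 in young, higher in CCD by 1.31 over old and 1.77 over young (exact p = 0.1, adjusted p = 0.225 for each), the last being 1.17 without young cortex_377. CACNA1A to CACNA1B was higher in CCD than in old by 0.51, also without overlap (exact p = 0.1, adjusted p = 0.225), while SCN1A to SCN2A overlapped between all groups.

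SCN3A to SCN2A was the ratio that set the young libraries apart. It was -3.04, -3.69 and -3.49 in CCD, -2.96, -2.97 and -3.08 in old and -2.23, -2.75 and -2.69 in young. Every young library, young cortex_377 included, lay above every CCD and old library. The difference was -0.85 for CCD against young and -0.45 for old against young (exact p = 0.1, adjusted p = 0.225 for each; -0.28 without young cortex_270 for the last), and CCD and old overlapped.

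**Figure D4:**
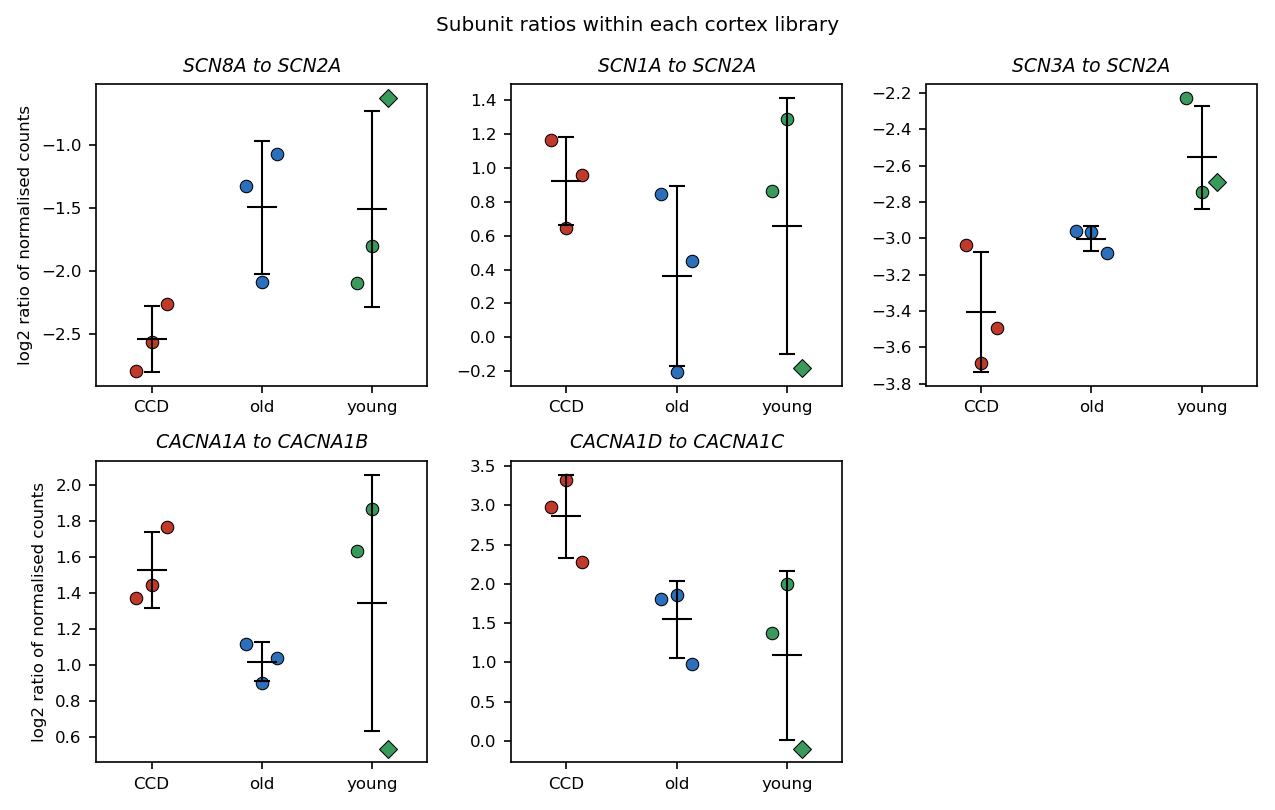
Log2 ratios of normalised counts between pairs of members within each cortex library, by group. Points are libraries, the diamond is young cortex_377, and bars are the mean ± SD (n = 3). SCN8A to SCN2A is lowest in CCD (-2.79 to -2.26), CACNA1D to CACNA1C highest in CCD (2.28 to 3.32), and SCN3A to SCN2A highest in young (-2.75 to -2.23).

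Genes that work with these channels were read from the same fit, and 0 of them passed over all genes in any cortex comparison. Of 12 genes that anchor or regulate sodium channels, 12 had a negative change in CCD against old, with a median of -0.53, and 5 of them were lower and 0 higher at an unadjusted p under 0.05, beside 57.1% of all genes negative, 10.8% lower and 3.99% higher. FGF14, an intracellular factor that binds sodium channels, was at -1.43 ± 0.42, NFASC, which encodes the nodal adhesion protein neurofascin, at -1.43 ± 0.52 and its partner NRCAM at -0.86 ± 0.32 (SE; limma adjusted p = 0.290, 0.297 and 0.301). Fitted without young, 4 of the 12 were called lower, as were 6.81% of all genes.

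Of 18 calcium channel partners 2 were lower and 0 higher at an unadjusted p under 0.05 in CCD against old, with a median of -0.36 and 12 negative, near the shares over all genes (10.8% lower and 57.1% negative). ERC2 and RIMS2, both of the presynaptic active zone where calcium channels sit, were at -0.93 ± 0.38 and -0.59 ± 0.26 (SE; limma adjusted p = 0.313 and 0.333), and CBARP, a brake on calcium channels, at -0.53 ± 0.27. Of the 4 genes of the sodium leak channel complex all 4 were negative. FAM155A, an auxiliary subunit of it, was at -1.57 ± 0.41 (SE; limma adjusted p = 0.290).

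Of 15 genes for calcium release and extrusion, 4 were lower and 3 higher at an unadjusted p under 0.05, beside 10.8% and 3.99% of all genes. ATP2B3, a plasma membrane calcium pump, was at -1.71 ± 0.52 and SLC8A1, a sodium-calcium exchanger, at -1.91 ± 0.71, while ITPR3, an IP3 receptor, was at 0.65 ± 0.20 (SE; limma adjusted p = 0.290, 0.302 and 0.290). Fitted without young, 7 of the 15 were called lower and 2 higher (6.81% and 2.54% of all genes). In the comparisons with young, GEM, a small GTPase that restrains calcium channels, had the smallest p of the partners. It had 75.6, 27.8 and 116 normalised counts in CCD, 35.9, 24.8 and 34.3 in old and 371, 262 and 158 in young, so that every CCD and old library lay below every young one. The change was -2.95 ± 0.53 for old over young and -1.97 ± 0.53 for CCD over young (SE; limma adjusted p = 0.297 and 0.363). These lists were chosen with earlier results of the data known.

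In the second comparison, old against young cortex, few members differed beyond the spread between libraries, and the count and the direction depended on the fit. Limma and edgeR called 0 members and 0 genes, and DESeq2 0 members and 216 genes. At an unadjusted p under 0.05 there was 1 member lower and 0 higher, beside 3.89% of all genes lower and 2.85% higher; edgeR and DESeq2 also had 1 lower and 0 higher (6.02% and 6.93% of all genes lower). Groups did not overlap in 1 lower and 1 higher (5.65% and 6.56% of all genes). The lower member was CACNG4, a TARP gene, with 215, 353.2 and 238 normalised counts in old and 574, 581 and 434 in young, so that no old library reached a young one, and the CCD libraries lay at 382, 376 and 260. Its change of old over young was -0.996 ± 0.27 (SE; limma adjusted p = 0.503, and 0.0665 to 0.9999 over 21 alternatives).

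The median member was at 0.13 in old over young, where all genes had 0.03, and 13 of 37 were negative, beside 46.1% of all genes. The 8 tested sodium channel alpha genes were all positive, from 0.02 to 0.74, but 3 of them were negative after centring on general neuron markers. That centring moved the median of all genes to -0.35 and the median member to -0.26. Then 28 of 37 members were negative, beside 15953 of 19010 genes. The others of smallest p were CACNA2D3 at 0.33 ± 0.19, CACNA2D2 at 0.33 ± 0.19, CACNA1E at 0.55 ± 0.36 and SCN3B at 0.53 ± 0.35 on the higher side (SE; limma adjusted p = 0.821 to 0.861). On the lower side they were CACNA1S at -0.86 ± 0.79, CACNG5 at -0.30 ± 0.32 and CACNA1G at -0.30 ± 0.33 (limma adjusted p = 0.933 to 0.952). Without young cortex_377 the unadjusted p was under 0.05 for 9 members that were higher and 1 that was lower (10.1% and 8.20% of all genes), with a median of 0.38. With oligodendrocyte markers as a covariate there were 8 higher and 1 lower (10.6% and 7.21% of all genes), with a median of 0.43, and with library weights 5 higher and 1 lower (5.27% and 4.96%). SCN2A, SCN8A, SCN2B, SCN3B and CACNA1E were among the higher and CACNG4 was the lower in both of these fits.

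The third comparison, CCD against young cortex, uses libraries of both others, so its values are not independent of theirs. Limma called 0 members and 0 genes. At an unadjusted p under 0.05 there were 8 members lower and 2 higher, beside 8.74% of all genes lower and 4.13% higher. Groups did not overlap in 8 members that were lower and 1 that was higher (8.22% and 5.28% of all genes). With edgeR the unadjusted split was 9 lower and 2 higher (7.87% and 5.07% of all genes), and with DESeq2 also 9 and 2 (8.74% and 6.03%). The median was -0.31, where all genes had -0.09, and 29 of 37 were negative, beside 57.1% of all genes. By that unadjusted p there were 3 lower and 1 higher without young cortex_377 (5.79% and 2.90% of all genes) and 11 lower and 2 higher without young cortex_353 (13.9% and 8.03%). Without CCD cortex_163, CCD cortex_354 or CCD cortex_358 there were 5, 4 and 5 lower (5.13%, 4.48% and 11.1%).

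The covariates also changed the third comparison. With the log2 read total as a covariate 1 member was lower and 2 were higher at an unadjusted p under 0.05 in CCD against young (2.33% and 2.11% of all genes), and the median member was at 0.12. With oligodendrocyte markers as a covariate there were also 1 lower and 2 higher (3.21% and 2.51%), with a median of 0.08. In both fits the lower member was CACNG4 and the higher were CACNA1D and CACNA1H. Library weights gave 2 lower, CACNA1I and CACNG8, and 1 higher, CACNA1D (4.29% and 1.96%), and centring on general neuron markers 9 lower and 0 higher (10.5% and 1.63%).

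Of small p on the lower side were CACNA1I at -1.64 ± 0.52, CACNG8 at -1.26 ± 0.41 and SCN3A at -1.27 ± 0.44 for CCD over young (SE; limma adjusted p = 0.363 for each). DESeq2 called CACNA1I lower, as it did 0.626% of all genes. On the higher side were CACNA1D at 0.65 ± 0.20 and CACNG2 at 0.57 ± 0.25 (limma adjusted p = 0.363 and 0.384). CACNA1D was higher in every CCD library than in any young or old library, with means of 1369 ± 277 in CCD, 949 ± 108 in old and 866 ± 90.2 in young (SD, n = 3 each). CACNB4 and SCN7A followed at 0.34 ± 0.21 and 1.15 ± 0.84 (SE).

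The young group was split by young cortex_377. It had the highest normalised count of all 9 cortex libraries in 17 of 37 members, or 45.9%, and in 24.0% of all tested genes. The median member lay 0.52 above its mean over the libraries there on the log2 scale, against -0.16 in young cortex_270 and -0.20 in young cortex_353. In the CCD libraries that value was -0.20, -0.44 and -0.29, and in the old libraries 0.14, 0.19 and 0.26, so young cortex_270 and young cortex_353 stood nearer to CCD than to old.

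In plasma EVs the channel genes looked unlike those of cortex. The tables of the 2 tissues were normalised separately and counts are not per length, so levels are given side by side without a test. All 39 had a mean of at least 10 normalised counts in EVs. Across 37 of the genes the EV and cortex means had a Spearman's rho of 0.081, a description over genes, which are not independent and differ in length. SCN10A, which encodes the Nav1.8 of sensory neurons, had 0 to 3.10 normalised counts in cortex but 135 to 544 in EVs. The 5 sensory neuron markers summed to 734 to 1060 in CCD EVs, 770 to 1727 in old EVs and 749 to 1405 in young EVs, beside 127 to 532 over the cortex libraries, and their part in the SCN10A counts was not tested. Higher EV sums were not particular to that list. Platelet and red cell markers summed to 494 to 895 in EVs, beside 135 to 355 in cortex. General neuron markers were lower in EVs (1901 to 3449, beside 175724 to 276750). Between 74.9% and 84.2% of EV reads fell on transposable element families, beside 4.19% to 7.91% in cortex, and the EV libraries were made from total and not polyadenylated RNA.

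**Figure D5:**
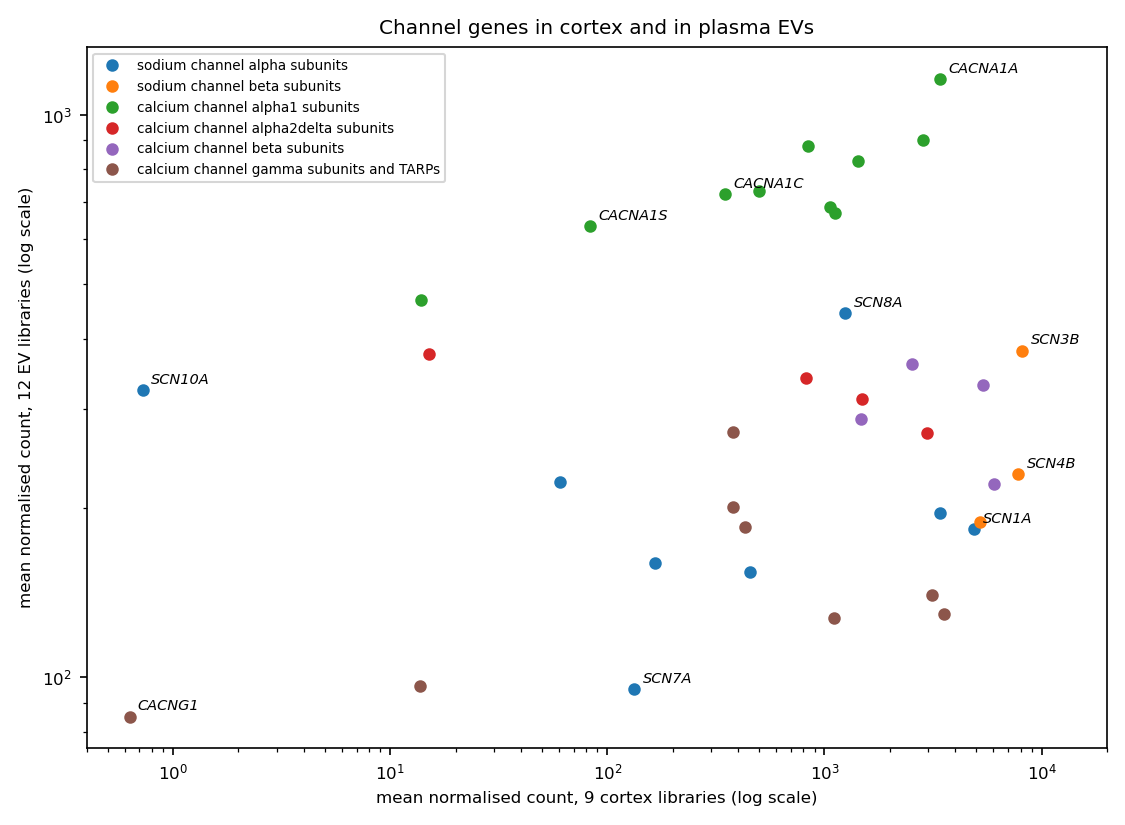
Mean normalised count of 37 of the 39 members in cortex (9 libraries, horizontal log axis) and in EVs (12 libraries, vertical log axis), coloured by subunit class. The EV means lie between 85.2 and 1157, the rank correlation with cortex is 0.081, and SCN10A and CACNG1 are near 0 in cortex only.

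In CCD against old EVs, limma and edgeR called 0 members and 0 of 31728 genes, and DESeq2 called 0 members and 2 genes. At an unadjusted p under 0.05 there were 5 members lower and 0 higher with limma, beside 5.34% of all genes lower and 0.640% higher, and 1 lower, CACNG7, with edgeR (1.04% of all genes) and with DESeq2 (1.48%). The count was 10 lower with the transposable element share as a covariate, chosen after seeing the data (12.1% of all genes), 11 with library weights (also 12.1%), 8 with CCD and old alone (6.06%) and 2 with scaling to gene reads (2.92%). Leaving out 1 library gave 1 to 7 lower, the most without young EV_353 (1661 of 31728 genes lower). The count was 1 without CCD EV_163 or old EV_519 (1146 and 1356 genes). It was 2 without CCD EV_354 or old EV_250 (1518 and 1248) and 3 without CCD EV_523 or old EV_264 (999 and 1384). Groups did not overlap in 5 members that were lower and 0 that were higher (5.08% and 0.845% of all genes): SCN8A, SCN2B, CACNA1G, CACNG5 and CACNG7. Of the 39 members 38 were negative, with a median of -0.35, but so were 80.0% of all genes, whose median was -0.27. After quantile normalisation all genes had a median of -0.01 and the members -0.15. Then 30 members were negative, beside 16261 of 31728 genes, and 1 was lower at an unadjusted p under 0.05 (1.30% of all genes).

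CACNG7 had the smallest p, with 94.4 ± 12.05 normalised counts in CCD and 160 ± 16.4 in old EVs (SD, n = 4 each) and no overlap. In the order EV_163, EV_354, EV_358 and EV_523 for CCD and EV_250, EV_253, EV_264 and EV_519 for old, it had 96.96, 110, 84.2 and 86.1 against 170, 158, 138 and 175. The change was -0.76 ± 0.20 (SE; limma adjusted p = 0.777, and 0.228 to 0.9999 over 22 alternatives). CACNG2 and SCN4B followed at -0.62 ± 0.26 and -0.71 ± 0.31 (SE; limma adjusted p = 0.777 for both), with overlapping groups.

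In CCD against young EVs limma and edgeR called 0 members and 0 genes, and DESeq2 0 members and 1 gene. By limma there were 2 lower and 0 higher at an unadjusted p under 0.05, beside 2.71% of all genes lower; edgeR had 0 and DESeq2 1 lower, CACNA1B (1.07%). The limma count was 0 without CCD EV_523 or young EV_353 (618 and 309 of 31728 genes lower). It was 1 without CCD EV_163 or young EV_270 (546 and 750) and 3 without CCD EV_358 (859). Without young EV_377 it was 4 (837) and without young EV_502 it was 6 (2005). With the transposable element share as a covariate it was 9 (7.73% of all genes), and with library weights 8 (8.94%). The 2 by limma were CACNG7 at -0.51 ± 0.20 and CACNA1B at -0.56 ± 0.22, and CACNA1G followed at -0.45 ± 0.22 (SE; limma adjusted p = 0.9999 for each). Of the 39, 35 were negative, beside 72.2% of all genes, and 28 after quantile normalisation, beside 15738 of 31728 genes. In old against young EVs 0 members were called, and 0 passed an unadjusted p under 0.05 by limma, where 0.489% of all genes were lower and 0.753% higher. By edgeR and DESeq2 1 member, CACNB1, was lower (1.18% and 1.39% of all genes), and with library weights 3 were higher, CACNG6, SCN2B and SCN4B (8.49%). The smallest p by limma were those of CACNB1 (-0.33 ± 0.18), SCN4B (0.54 ± 0.31) and SCN3A (0.57 ± 0.35; SE). SCN8A had 388, 430, 426 and 281 normalised counts in CCD EVs and 463, 571, 450 and 501 in old EVs, without overlap, at -0.39 ± 0.25 (SE; limma adjusted p = 0.777), and the EV groups overlapped for CACNG8.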

How the data were processed

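For cortex and for EVs the authors deposited signal values, called normalised counts in the sheets, for genes and for families of transposable elements. STAR and DESeq2 were used per the submitters' processing notes. No source used here gives their versions, the genome build, the annotation, the counting tool or the strand setting. Every value was a whole number of reads times a library factor (100% of values, tolerance 0.01), which gave the read totals; young cortex_353 has a factor close to 1, which makes the check weak there. Genes with a mean of at least 10 were tested, 19010 in cortex and 31728 in EVs, leaving transposable element families out, as log2(normalised count + 1) with limma 3.58.1 in R 4.3.3, in 1 trended fit over the 3 groups of a tissue, with Benjamini-Hochberg adjustment over all tested genes and a threshold of 0.05. The pseudocount understates fold changes of low genes. Marker sums add normalised counts. Ratios were compared with exact permutation tests (scipy 1.17.1). The scripts were tested on simulated data. Counting error is small beside the spread between libraries for genes with many reads.

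Members and lists were chosen with earlier results of these data known. Named with values are, per cortex comparison, the up to 4 tested members of smallest p in each direction and 26 neuronal members fixed by name; in EVs the up to 3 of smallest p; and up to 3 genes per partner list. Not every gene this takes is printed, and some members are not reported here. Other members are given by range, and SCN9A was added after its values were seen. Alternatives were a pseudocount of 5, no filter, a minimum mean of 50, scaling to gene reads, quantile normalisation, centring on neuron markers, the compared groups alone, library weights, edgeR 4.0.16, DESeq2 1.42.0 and leaving out each library, and, chosen after seeing the data, covariates for the log2 read total and oligodendrocyte markers in cortex and for the transposable element share in EVs. RefSeq names (assembly UU_Cfam_GSD_1.0) matched 38 of 39 members and gave neighbouring and overlapping genes only.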

Additional observations from a re-analysis of the deposited data

Results flagged for a closer look

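In EVs, 111 member and group combinations of 4 libraries were checked for 1 library far from the others, and 4 had one; chance gives about 1 in 20. SCN7A had 209 normalised counts in CCD EV_523, against 50.9 to 70.0 in the other CCD libraries. CACNA1G had 630 in CCD EV_358, against 481 to 497 in the others. CACNA1S had 926 in young EV_353, against 592 to 645 in the others, and CACNG4 had 374 in young EV_502, against 244 to 251. What lies behind these values was not tested.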

How the results depend on the processing

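The main fit called 0 genes and 0 members in all 6 comparisons. Under the alternatives 239 of these counts were also 0 and 19 were not. A count that stays at 0 does not show that the fold changes are stable. The exceptions were these. In CCD against old cortex limma called 0 genes and 0 members, the compared groups alone gave 1778 and 11, library weights 1632 and 9, and DESeq2 162 genes; leaving out 1 library gave 0 to 741 genes and 0 to 7 members, the highest without young cortex_377. In CCD against young cortex DESeq2 called 208 genes and 1 member, and leaving out 1 library gave 0 to 1 genes. In old against young cortex centring on neuron markers gave 4 genes, DESeq2 216, and leaving out 1 library 0 to 41. In CCD against old EVs the transposable element share as a covariate gave 8 genes and DESeq2 2, with 0 to 1 on leaving out 1 library; in CCD against young EVs DESeq2 gave 1, and in old against young EVs leaving out 1 library gave 0 to 1.

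Signs changed as follows for the members of smallest p and some others. With the log2 read total as a covariate, CCD against old was 0.65 for SCN8A, 0.25 for SCN2B, 0.30 for CACNA2D1, 0.20 for CACNA1I, 0.11 for CACNB2 and -0.34 for CACNG4. Of the 37 members 13 were negative there instead of 26, beside 10031 instead of 10862 of 19010 genes. The sign also turned for CACNA1C (1.23), CACNG5 (1.10), SCN11A (1.19), CACNB3 (0.45), SCN1A (0.40), CACNA1G (0.37), CACNB1 (0.36), SCN2A (0.35), CACNA1B (0.35), CACNG3 (0.26), SCN7A (-0.48) and CACNB4 (-0.19). In the same fit CCD against young was 0.52 for SCN2B and 0.12 for CACNG8, CACNB2 and CACNA2D1. With oligodendrocyte markers as a covariate, CCD against young was 0.21 for SCN2B and 0.0070 for CACNA2D1, and old against young was 0.075 for CACNG5 and 0.088 for CACNA1G. Centring on neuron markers gave -0.061 for CACNA2D3 and -0.054 for CACNA2D2 in old against young, and leaving out 1 library gave -0.69 to 0.11 for CACNA1G, positive without young cortex_377. On leaving out 1 library the difference in the log2 ratio was -0.28 to 0.46 for SCN8A to SCN2A in old against young (0.02 with all, below 0 without old cortex_250, old cortex_264, young cortex_270 or young cortex_353). For SCN1A to SCN2A it was -0.71 to 0.022 in old against young, above 0 without young cortex_353, and -0.15 to 0.58 in CCD against young. For CACNA1A to CACNA1B in CCD against young it was -0.22 to 0.44, and for CACNA1D to CACNA1C in old against young -0.14 to 0.91. These last 3 turned without young cortex_377. The cause was not tested. No paired analysis was possible because the groups compared within a tissue share no library number. Depth limits CACNA1F, CACNA2D4 and CACNG6, which rest on few reads in cortex.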
